A study of Mus musculus with 2 samples.

Results

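The cells described here were splenic T cell barcodes that held at least 1 transcript of Cxcr3 and none of Klrg1, a set labelled as Cxcr3-positive Klrg1-negative effector regulatory T (Treg) cells. They were selected on their own unique molecular identifiers (UMIs, each counting 1 captured RNA molecule). A barcode had to hold at least 300 genes and 2000 UMIs with at most 5% of its UMIs from mitochondrial genes, at least 3 UMIs summed over the T cell genes Cd3d, Cd3e, Cd3g, Trac and Trbc2, and at most 2 UMIs summed over the cell-division genes Mki67, Top2a, Birc5 and Pclaf. Of 32658 barcodes in the series, 487 met the rule, 428 in the WT library and 59 in the KO library. They are called Cxcr3+ barcodes below. They were set against the T barcodes of the same limits with neither Cxcr3 nor Klrg1, called Cxcr3- barcodes, of which there were 3320 in WT and 5580 in KO.

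The study asked what the zinc finger protein Zfp335 does in Treg cells early after birth. Both libraries came from YFP-sorted Treg cells of the spleens of 7-day-old C57BL/6J mice. WT mice carried the Foxp3-Cre allele with normal Zfp335, and KO mice carried it with loxP-flanked Zfp335 (Zfp335fl/flFoxp3-Cre), so the Cre allele, which follows the Foxp3 coding sequence and also makes the YFP used for sorting, was shared by both groups. Each genotype was represented by 1 library, and the number of mice pooled into a library was not given in the sources used here. No difference between genotypes could therefore be tested, and genotype and library cannot be told apart. Levels are given as CPM, the UMIs of a gene per 1000000 UMIs of the set. Ratios are given with exact 95% intervals and shares with Clopper-Pearson 95% intervals. These cover counting error only, without the spread between cells or between mice.

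CXCR3 is a chemokine receptor that guides T cells toward the interferon-γ-induced ligands CXCL9 and CXCL10. In Treg cells its gene is a known target of T-bet, the transcription factor of type 1 immunity encoded by Tbx21, and Treg cells carrying CXCR3 accumulate where type 1 responses take place. KLRG1 marks a more terminally differentiated effector Treg population. Resting, or central, Treg cells instead keep the lymphoid homing receptor encoded by Ccr7 and the transcription factor genes Satb1, Lef1 and Tcf7. In the mm10 genome (GRCm38 coordinates) Cxcr3 lies on the minus strand at chrX:101731535-101734269.

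The libraries held similar numbers of UMIs, 64567991 in WT and 65480052 in KO. Cxcr3+ barcodes were deeper than Cxcr3- barcodes in both, with a median of 6240.5 against 4719.5 UMIs in WT and 5112 against 3910 in KO. The libraries shared 70 barcode sequences, 4 of them among the WT Cxcr3+ barcodes. Foxp3, the lineage factor used for sorting, was seen in 25.2% of the WT and 15.3% of the KO Cxcr3+ barcodes, and at least 1 of Foxp3, Il2ra, Ctla4 and Ikzf2 in 95.6% and 89.8%. In erythroid, neutrophil and B cell barcodes Foxp3 was seen in 0 of 81 (WT) and 1 of 92 (KO), but Ctla4 in 12.3% and 5.43% and Il2ra in 4.94% and 10.9%. Single UMIs of Ctla4 or Il2ra are thus weak evidence of the Treg label, and Foxp3 was seen in a minority of the barcodes.

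A few Cxcr3+ barcodes, mainly in KO, carried the genes of another lineage. Siglech, a plasmacytoid dendritic cell gene, or the natural killer (NK) cell genes Ncr1 and Klrb1c were seen in 9 of the 59 KO Cxcr3+ barcodes (15.3%, 95% interval 7.22 to 27.0), against 0.412% of KO Cxcr3- barcodes. In WT the shares were 0.935% and 0.813%. Of the 9 KO barcodes, 4 held Siglech and 5 held an NK gene. A single UMI was enough for this mark, which is weak evidence of lineage in any 1 barcode. In 1 of the 5 NK barcodes Tyrobp was at 0 and S100a4 at 13.1 UMIs per 10000. The 5 NK barcodes held 116 of the 117 Ccl5 UMIs and 234 of the 235 Gzma UMIs of all KO Cxcr3+ barcodes, and the 4 Siglech barcodes held 225 of the 233 Cd74 UMIs and all 95 UMIs of H2-Aa. For this reason gene levels are given below without barcodes that held Siglech, Ncr1, Klrb1c or the B cell gene Cd79a, or had at least 1% of UMIs from globin genes or from S100a8 and S100a9. This left 419 Cxcr3+ and 3154 Cxcr3- barcodes in WT, and 47 and 5138 in KO. Counts over all genes are given for both versions, list counts are without these barcodes and with the other count where it bears on the result, and the exclusion was chosen after these values had been seen.

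**Figure D1:**
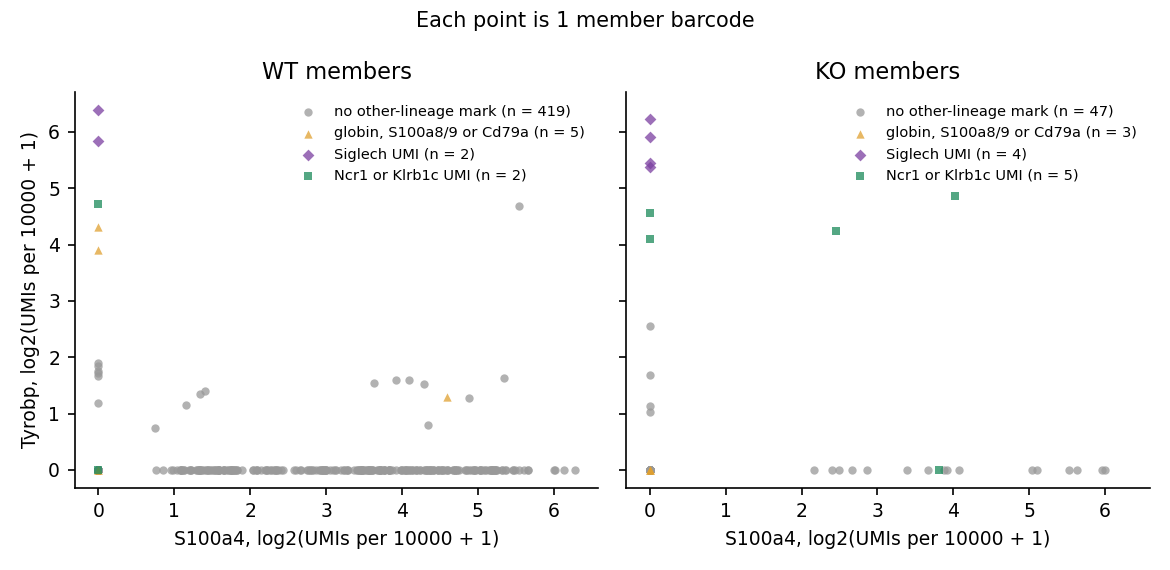
Each point is 1 Cxcr3+ barcode (named member in the plot), with S100a4 on the x axis and Tyrobp, a gene of myeloid, dendritic and NK cells, on the y axis, both as log2(UMIs per 10000 + 1). Colours mark the 419 WT and 47 KO barcodes kept and those with globin, S100a8/S100a9 or Cd79a (5 WT, 3 KO), Siglech (2 WT, 4 KO) or an NK gene (2 WT, 5 KO).

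Cxcr3+ barcodes made up 10.5% of WT T barcodes (428 of 4094, 95% interval 9.53 to 11.4) and 1.04% of KO T barcodes (59 of 5656, 0.795 to 1.34). The difference, KO minus WT, was -9.41 percentage points (Newcombe 95% interval -10.4 to -8.46). When each barcode was thinned to 2000 UMIs and the rule applied again, which let more barcodes pass the limit on cell-division genes, the shares were 6.57% (328 of 4990) and 0.583% (38 of 6515). Among the original T barcodes, thinned, they were 5.74% and 0.619%. Without the barcodes of other lineages they were 10.7% (419 of 3907) and 0.904% (47 of 5199). The KO share was the lower by every one of these counts.

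Free RNA in the droplets sets a floor for such shares. Among erythroid, neutrophil and B cell barcodes, which should lack Cxcr3, 3 of 81 in WT held a Cxcr3 UMI (3.70%, 95% interval 0.770 to 10.4, median 4594 UMIs). In KO it was 0 of 92, which allows a share of up to 3.26% from 3 counts of the 92 (Clopper-Pearson upper bound 3.93, median 3916.5 UMIs). The WT share of 10.5% lay just above the upper bound of its background, whereas the KO share of 1.04% was below what the KO background allows. At 2000 UMIs the WT background was 2 of 81 (2.47%, 0.300 to 8.64), and the WT share of 6.57% lay inside that interval. So did the 6.28% of WT T barcodes with a Cxcr3 UMI, counted without the Klrg1 limit. The KO share therefore cannot be read as expression on its own, nor can the WT share at equal depth, and the barcodes are described through their other genes.

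**Figure D2:**
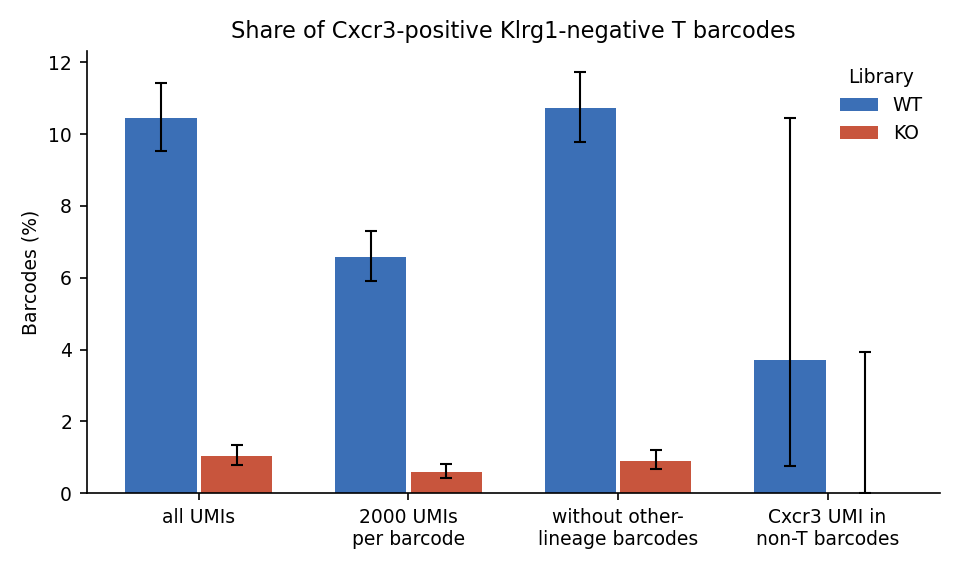
Bars show Cxcr3+ barcodes as a percent of T barcodes in WT and KO with all UMIs (10.5% and 1.04%), at 2000 UMIs per barcode (6.57% and 0.583%) and without barcodes of other lineages (10.7% and 0.904%). The last pair is the percent of erythroid, neutrophil and B cell barcodes with a Cxcr3 UMI (3.70% in WT, 0 in KO), without a limit on Klrg1. Error bars are 95% intervals from counting.

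Most Cxcr3+ barcodes were positive by a single molecule. In WT they held 844 Cxcr3 UMIs, and 239 of 428 (55.8%) held 1 UMI. In KO they held 93 UMIs, and 44 of 59 (74.6%) held 1. In CPM, the KO level of Cxcr3 within Cxcr3+ barcodes was 0.94 times the WT level (95% interval 0.75 to 1.17), a value that the selection itself sets in large part.

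Klrg1 was found more often beside Cxcr3 than without it. In WT, 19.9% of the T barcodes with Cxcr3 (106 of 534) held a Klrg1 UMI, compared with 6.74% of those without (240 of 3560). In KO the shares were 3.28% (2 of 61) and 0.268% (15 of 5595). These shares were counted on all UMIs and not at equal depth. Cxcr3+ barcodes were deeper than Cxcr3- barcodes, and the part of depth in the result was not tested. The barcodes with both genes were left out of the set by its rule.

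In WT the 5 marker genes named with this population, S100a4, S100a6, Icos, Ccr2 and Tbx21, were each higher in Cxcr3+ than in Cxcr3- barcodes. S100a4, a small calcium-binding protein of motile and memory cells, was at 976 CPM against 166, a ratio of 5.89 (95% interval 5.58 to 6.21). Its relative S100a6 was at 2102 against 557 CPM (ratio 3.77). Icos, a costimulatory receptor of effector Treg cells, was at 144 against 68.9 (ratio 2.09). Ccr2, a receptor for inflammatory chemokines, was at 50.7 against 12.7 (ratio 3.99, 3.21 to 4.96). Tbx21 was at 14.4 against 2.81 (ratio 5.14, 3.29 to 8.01). All 5 were measured in the very barcodes the rule picked, so these values are a description.

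Across the genome, 9459 genes had at least 10 UMIs expected in each WT set. Of these, 429 (4.54%) were at least 1.5 times higher in Cxcr3+ barcodes and 796 (8.42%) at least 1.5 times lower. Without the barcodes of other lineages it was 426 of 9351 (4.56%) and 754 (8.06%), with a median log2 ratio over all genes of -0.02. The list counts that follow in WT are from this version and are to be read against these shares.

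Type 1 genes were higher in most cases. Of 18 genes of the type 1 list 14 could be compared, 9 were higher and 1 was lower, with a median log2 ratio of 0.94. Nkg7, a cytotoxic granule protein, was at 335 against 45.7 CPM (ratio 7.34, 6.66 to 8.08). Ccl5, a chemokine of type 1 effector cells, was at 279 against 39.1 (ratio 7.13, 6.42 to 7.92). Ifng, encoding interferon-γ, was at 20.8 against 3.30 (ratio 6.30, 4.28 to 9.29). Receptors for type 1 cytokines were also higher. Il18r1, a subunit of the IL-18 receptor, was at 48.95 against 14.0, and Il12rb1, a subunit of the IL-12 receptor, at 17.6 against 11.3. The lower gene was Ifngr2, the signalling chain of the interferon-γ receptor, at 7.75 against 24.4 CPM (ratio 0.32), while Ifngr1, its ligand-binding chain, was at 163 against 86.4 (ratio 1.89). Stat4, which carries IL-12 signals, had a ratio of 1.23 and did not reach the limit. Genes of other lymphocytes moved with this group even without the excluded barcodes. Gzma, the 1 gene of 7 on the NK and innate lymphoid list that could be compared, was at 17.3 against 3.48 CPM, and of 2 compared genes of the CD8, γδ T and NKT list Trdc was higher (10.6 against 6.78) and Cd8b1 was not (4.93 against 7.08). Ncr1, Klrb1c, Klra8 and Klra4 were at 0, the first 2 by the exclusion. Their part in the result was not tested.

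The heptamer GGTGTGA, a site that T-box factors such as T-bet are known to bind, or its reverse complement TCACACC, was looked for in the 250 bases upstream of the RefSeq start of Cxcr3, the 5 markers and the type 1 list. Of these, 17 genes had 21 RefSeq promoters, and it was present in 2 (9.52%), those of Nkg7 and Gzmk, and not in that of Cxcr3. Over all RefSeq promoters of the same length 3.33% (1095 of 32851) held it. A match is a description of the letters and no evidence of binding.

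Trafficking receptors separated in opposite directions. Of 7 compared chemokine receptors 4 were higher and 1 lower. Cxcr6, a receptor for the membrane-bound chemokine CXCL16, was at 20.4 against 3.6 CPM (ratio 5.67), and Ccr10, a receptor of skin- and mucosa-seeking lymphocytes, at 11.3 against 2.50 (ratio 4.50). Ccr9, the gut-homing receptor also made by immature thymic cells, was at 2.11 against 12.2 (ratio 0.17). Among 6 lymphoid homing genes none was higher and 2 were lower. Ccr7 was at 31.3 against 88.4 CPM (ratio 0.35, 0.28 to 0.44). S1pr1 and Klf2, which govern exit from lymphoid organs, had ratios of 0.73 and 0.86.

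Genes of resting T cells were lower alongside. In the naive list 0 of 17 genes were higher and 9 were lower, with a median log2 ratio of -0.63. Igfbp4 was at 25.7 against 85.4 CPM (ratio 0.30), and Satb1, a chromatin organiser of early Treg development, at 87.3 against 222 (ratio 0.39). Bach2, a repressor of effector differentiation, was at 33.1 against 67.6 (ratio 0.49), and Tcf7 at 113 against 189 (ratio 0.60). Lef1 was also below its comparison level, at 162 against 221, without reaching the limit. Outside the lists, the survival gene Bcl2 (ratio 0.38) and the glutathione transferase gene Gsta4 (0.23) were among the 10 lowest. The lowest, Prss34 and Mcpt8 (0.0242 and 0.101), are basophil protease genes that the exclusion did not remove from the Cxcr3- barcodes.

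The S100, galectin and annexin genes that accompany migration were higher as a group, 8 of 11 compared, with a median log2 ratio of 0.78. Lgals3, a galectin, was at 199 against 42.8 CPM (ratio 4.65), S100a11 at 779 against 233 (3.34) and S100a10 at 2581 against 1173 (2.20). Of 13 adhesion genes 4 were higher. Itgb1, the β1 integrin chain, was at 482 against 209 CPM (ratio 2.31, 2.17 to 2.46), and Itgae, which binds E-cadherin on epithelium and is counted with the Treg genes, at 13.03 against 2.93 (4.45). Cd44 had a ratio of 1.24. Ly6a, an activation antigen, and AW112010, an interferon-responsive transcript, were among the 10 highest genes, with ratios of 5.06 and 4.02.

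Among 13 compared transcription factors of effector cells 5 were higher and none was lower. Prdm1, encoding Blimp-1 of effector Treg cells, was at 14.8 against 4.39 CPM (ratio 3.37, 2.24 to 4.99) and Maf, a driver of IL-10 expression, at 145 against 63.8 (2.28). Id2, Rora and Zeb2 had ratios of 2.07, 1.94 and 2.24. The factors of other helper lineages stayed near 1, with Gata3 at 1.07 and Bcl6 at 0.91, and Runx3, counted in the type 1 list, was at 1.96.

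Of 10 compared genes of suppressive and cytotoxic function 6 were higher and none was lower. Gzmb, encoding granzyme B, was at 65.9 against 9.09 CPM (ratio 7.24, 5.81 to 9.04). Fgl2, a secreted suppressor, was at 22.2 against 5.19 (4.28), Entpd1, the ectoenzyme CD39, at 16.9 against 5.43 (3.11), and Lag3, an inhibitory receptor, at 11.6 against 6.90 (1.69). Il10 had too few UMIs to be compared, and in the 428 barcodes its 28 UMIs lay in 10 barcodes, 35.7% of them in 1. Tgfb1 had a ratio of 0.86.

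Treg identity genes divided. Foxp3 was at 48.95 against 57.6 CPM (ratio 0.85, 0.71 to 1.02) and Ikzf2, encoding Helios, at 751 against 697 (1.08). Ctla4, the inhibitory receptor through which Treg cells limit costimulation, was at 129 against 80.9 (1.60), and Nrp1 at 111 against 68.6 (1.61). Lower values were seen for Il2ra, the IL-2 receptor α chain, at 108 against 154 (0.70), for Gpr83 at 27.8 against 90.9 (0.31) and for Lrrc32, which displays latent TGF-β, at 30.3 against 49.6 (0.61). In all, 4 of 14 genes were higher and 2 lower, with a median log2 ratio of 0.15.

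Early genes of T cell receptor signalling were not higher in any case, with 0 of 13 higher and 3 lower. Egr1 had a ratio of 0.65, Nr4a3 of 0.51 and Myc of 0.56, and Nr4a1 was at 0.73. Of 15 compared interferon-response genes 4 were higher, with a median log2 ratio of 0.50. They were Ifit3 (2.99), Gbp2 (2.30), Iigp1 (2.24) and Igtp (1.77), Gbp2, Iigp1 and Igtp being targets of interferon-γ. With all barcodes included 6 of the 15 reached the limit.

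**Figure D3:**
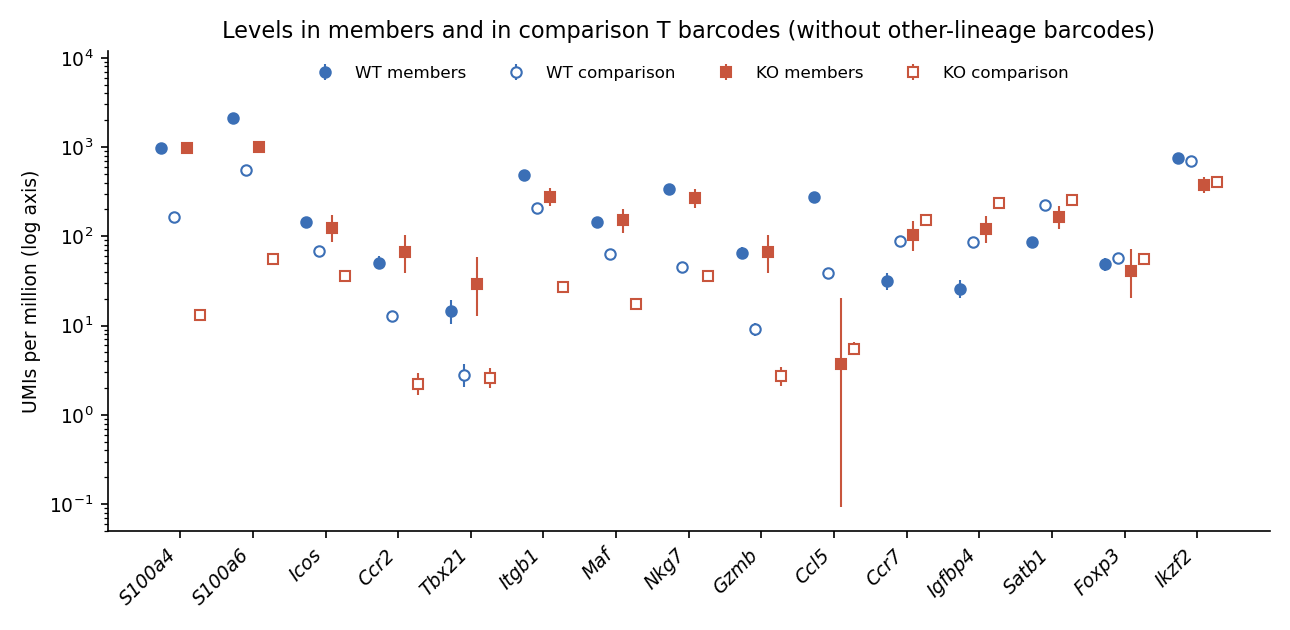
CPM (log axis) of 15 genes in WT (blue circles) and KO (red squares) without barcodes of other lineages, with filled symbols for Cxcr3+ and open symbols for Cxcr3- barcodes. S100a4 stood at 976 and 971 in the WT and KO Cxcr3+ barcodes and at 166 and 13.1 in the Cxcr3- barcodes, while Foxp3 stood between 40.4 and 57.6 in all 4 sets. The KO value of S100a4 in Cxcr3+ barcodes came from 16 of the 47.

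In WT the levels of several genes also followed the number of Cxcr3 UMIs per barcode. S100a4 was at 166 CPM in barcodes with no Cxcr3 UMI, 728 with 1, 1106 with 2 and 1333 with 3 or more. Itgb1 was at 209, 400.3, 522 and 601 over the same classes, and Icos at 68.9, 109, 138 and 211. Ccr7 ran the other way, at 88.4, 45.8, 26.3 and 8.67, and Igfbp4 at 85.4, 41.7, 10.5 and 7.43. Nkg7 did not keep the order, at 45.7, 279, 436 and 364, nor did Tbx21, at 2.81, 8.21, 24.5 and 18.6. Lef1 was at 221, 183, 140.2 and 141. Foxp3 was at 57.6, 45.8, 56.1 and 49.5. The classes held 3154, 232, 83 and 104 barcodes, and median depth moved with them, from 4683 over 5752 and 6475 to 7414 UMIs. Its part in the order was not tested. In KO 35 barcodes held 1 UMI, 4 held 2 and 8 held 3 or more, too few for the same description.

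The WT Cxcr3+ barcodes were also compared with the WT Klrg1+ T barcodes, of which there were 346 (334 without other lineages, 30.6% of the 346 with a Cxcr3 UMI of their own). Of 9103 genes 408 (4.48%) were at least 1.5 times higher in Cxcr3+ than in Klrg1+ barcodes and 485 (5.33%) at least 1.5 times lower. Without barcodes of other lineages it was 378 of 9033 (4.18%) and 468 (5.18%). The 10 highest in the first version included neutrophil genes such as Retnlg (30.3) and S100a8 (8.56), which came with the 2 barcodes rich in S100a8 and S100a9. In the second version the cytotoxic genes were led by Nkg7, at 335 against 175 CPM (ratio 1.92, 1.71 to 2.15), and Ctsw had a ratio of 2.01. Tbx21 was at 14.4 against 8.88 (ratio 1.63, 0.95 to 2.87), an interval that includes 1. Interferon-response genes were higher in 6 of 15 and lower in 1, among them Ifit3 (55 against 4 UMIs) and Stat2 (1.91). Igfbp4 (2.20) and Dapl1 (1.86), genes of resting cells, were also higher.

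Among the genes lower in Cxcr3+ than in Klrg1+ barcodes were chemokines, chemokine receptors and alarmin-related genes. The chemokine genes Ccl4 (0.15, in 10 Cxcr3+ barcodes) and Xcl1 (0.32) were among the 10 lowest. Il1rl1, the receptor for the alarmin IL-33, was at 7.75 against 30.7 CPM (ratio 0.25), and 3 of 6 compared genes of the Klrg1 and alarmin list were lower, none higher. Ccr2 was at 50.7 against 122 (ratio 0.42, 0.34 to 0.51), Ccr4, a skin- and type 2-associated receptor, at 15.1 against 41.2 (0.37), and Gata3 at 100.4 against 152 (0.66). Gzmb was at 65.9 against 121 (0.54). Ccl1 (49 UMIs against 1) was carried by few cells, with all 49 of its UMIs in 8 barcodes and 77.6% in 1. Foxp3 (0.83), Maf (1.04), Itgb1 (1.03) and Prdm1 (0.94) differed by less than the 1.5-fold limit, and S100a4 (0.81) and S100a6 (0.70) were also within it.

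In KO the Cxcr3+ barcodes had higher levels of the 5 marker genes than Cxcr3- barcodes, but of these S100a6 and Icos alone had the 10 expected UMIs needed to be compared. The values of S100a4, Ccr2 and Tbx21 are levels with ratios and no call. S100a4 was at 971 CPM against 13.1, a ratio of 74.2 (95% interval 62.8 to 87.7), and came from 16 of the 47 barcodes. S100a6 was at 1015 against 55.9 (18.2, 15.9 to 20.7), from 22 barcodes. Icos was at 125 against 36.3 (3.44, 2.37 to 4.85), from 17 barcodes. Ccr2 was at 66.2 against 2.24 (29.5), but 38.9% of its UMIs were in 1 of 9 barcodes, and Tbx21 at 29.4 against 2.62 (11.2) from 8 UMIs in 7 barcodes. With all 59 barcodes the ratios were 61.9 for S100a4, 14.2 for S100a6, 2.86 for Icos, 30.7 for Ccr2 and 13.7 for Tbx21. The large ratios of S100a4 and S100a6 came with a low denominator, since the KO Cxcr3- barcodes held 0.0789 times the S100a4 and 0.100 times the S100a6 level of the WT Cxcr3- barcodes.

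Of 3898 genes that could be compared in KO, 246 (6.31%) were at least 1.5 times higher in the 59 Cxcr3+ barcodes and 345 (8.85%) lower. In the 47 barcodes it was 147 of 3353 (4.38%) and 331 (9.87%), the median log2 ratio being -0.03. The 10 highest genes with all 59 included Tyrobp (16.5), Cd74 (11.2), Plac8 (8.58) and Irf8 (3.9), and none of these 4 was among the 10 highest in the 47.

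The 47 KO barcodes left few genes of most lists to compare. Of 3 compared effector transcription factors 0 reached the limit, nor did the 1 compared suppressive gene, Tgfb1 (log2 ratio -0.22). S100, galectin and annexin genes were higher in 6 of 9 and lower in none (median log2 ratio 0.68), and in 7 of 10 with all 59 barcodes. S100a11 was at 368 against 37.0 CPM (ratio 9.92) and S100a10 at 1360 against 496 (2.74). Nkg7 was at 268 against 36.1 (7.44), from 16 barcodes, the single gene higher among 4 compared type 1 genes (2 of 5 with all barcodes). Some genes were too low in Cxcr3- barcodes to be compared across the table and are given as levels. Itgb1 was at 276 against 26.8 CPM, Maf at 151 against 17.3 and Lgals3 at 187 against 10.2. Ccr4 was at 69.9 against 2.24, in 7 barcodes, and Cxcr6 at 44.1 against 0.914, with 7 of its 12 UMIs in 1 barcode. Gzmb was at 66.2 against 2.70, with 12 of its 18 UMIs in 1 barcode. Prdm1 and Il10 had no UMI, and Ccl5 had 1.

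Naive genes were lower in 7 of 17 and higher in none (median log2 ratio -0.49). Igfbp4 was at 121 against 237 CPM (ratio 0.51), Lef1 at 121 against 253 (0.48) and Satb1 at 165 against 257 (0.64). Ccr7 was at 103 against 153 (0.67), a difference within the limit. Among 12 compared Treg genes Ctla4 was higher (143 against 88.3, ratio 1.62) and 4 were lower, including Tnfrsf4 (0.64) and Gpr83 (91.9 against 142). Foxp3 was at 40.4 against 55.4 (0.73, 0.36 to 1.31) and Ikzf2 at 379 against 406 (0.93).

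Both Cxcr3+ sets were mixed, and barcodes without the 5 markers were the more frequent in KO. With every barcode thinned to 2000 UMIs, at least 2 of S100a4, S100a6, Icos, Ccr2 and Tbx21 were seen in 50.6% of the WT Cxcr3+ barcodes (212 of 419), against 14.5% of the Cxcr3- barcodes (458 of 3154). In KO it was 34.04% (16 of 47), against 1.07% (55 of 5138). The intervals of the Cxcr3+ shares overlapped, at 45.7 to 55.5 in WT and 20.9 to 49.3 in KO. None of the 5 was seen in 20.05% of the WT (84 of 419) and in 46.8% of the KO Cxcr3+ barcodes (22 of 47). Of the WT Klrg1+ barcodes 67.9% held at least 2 when all barcodes were included. The name effector Treg is therefore carried by the markers in a part of the Cxcr3+ barcodes only, in WT as in KO. That part was the smaller in KO.

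**Figure D4:**
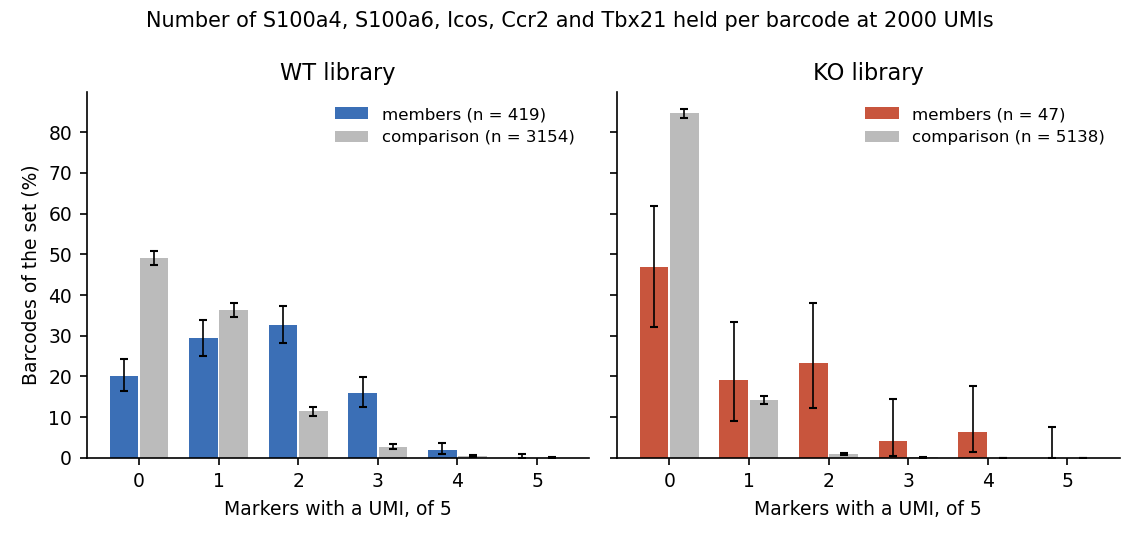
Percent of barcodes with 0 to 5 of the genes S100a4, S100a6, Icos, Ccr2 and Tbx21 at 2000 UMIs per barcode, for Cxcr3+ (members) and Cxcr3- (comparison) barcodes of WT (n = 419 and 3154) and KO (n = 47 and 5138). The class with none holds 20.05% of the WT and 46.8% of the KO Cxcr3+ barcodes, and 49.1% and 84.6% of the Cxcr3- barcodes.

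The per-barcode values show the same split. For S100a4 the median WT Cxcr3+ barcode held 2.34 UMIs per 10000 and the highest 76.4, with 155 of 419 at 0. In KO the median was 0 and the highest 62.8, with 31 of 47 at 0. S100a6 had a median of 8.97 and a highest value of 105.6 in WT, and a median of 0 and a highest value of 61.0 in KO, with 25 of 47 at 0. The highest KO barcodes thus lay within the WT range, and most KO barcodes lay at 0.

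The 22 KO barcodes with none of the 5 markers were close to the KO Cxcr3- barcodes in Ccr7 and Satb1. Ccr7 was at 160 CPM, against 153 in the Cxcr3- barcodes, and Satb1 at 253 against 257. Igfbp4 was lower in them, at 177 against 237, and Itgb1 was higher, at 50.6 against 26.8. The 16 KO barcodes with at least 2 markers differed from them in genes that had not been used to sort them. Itgb1 was at 534 CPM, Nkg7 at 466, Maf at 301 and Ly6a at 1000.2. Ccr7 was at 29.1, Igfbp4 at 38.8 and Satb1 at 87.4, from 3, 4 and 9 UMIs. The median depths of the 2 groups were 5176 and 5485 UMIs. In WT the 84 barcodes with none had Nkg7 at 109, Ccr7 at 77.6 and Igfbp4 at 67.9 CPM, and the 212 with at least 2 had Nkg7 at 519, Itgb1 at 552 and Ccr7 at 12.5.

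Restricted to barcodes with at least 2 markers, the KO and WT levels were close for Itgb1 and Nkg7. Both groups were picked by effector markers, and the part of that choice in the closeness was not tested. The KO over WT ratio was 0.97 for Itgb1 (0.72 to 1.27) and 0.90 for Nkg7 (0.66 to 1.20), the latter seen in 7 of the 16 KO barcodes. For Foxp3 it was 0.75 (0.20 to 2.00), from 4 KO UMIs. It was 2.07 for Ly6a, 1.65 for Maf and 2.36 for Il2ra. Ikzf2 had a ratio of 0.47, Ndufa4 of 0.41 and Cnpy2 of 0.25. Igfbp4 had a ratio of 5.92 (1.36 to 20.5), from 4 KO UMIs. Ccl5, with 1 UMI in the 16 KO barcodes against 674 in the 212 WT barcodes, had a ratio of 0.022. Tbx21 had a ratio of 3.70 (95% interval 1.47 to 8.2), Ccr2 of 1.86, S100a4 of 1.48 and Icos of 1.30. S100a6 was lower in KO, with a ratio of 0.62 (0.53 to 0.71). These genes were themselves used to choose the barcodes.

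Over all 47 KO and 419 WT Cxcr3+ barcodes, levels were compared directly. Of 4084 genes in the sets with all barcodes 226 (5.53%) were at least 1.5 times higher in KO and 527 (12.9%) lower. Without barcodes of other lineages it was 162 of 3495 (4.64%) and 481 (13.8%), with a median log2 ratio of -0.05 over all genes. In the first version the 10 highest genes included Siglech, Gzma, H2-Aa, H2-Ab1, Cd74 and Tyrobp, which came with the 9 barcodes described above.

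The markers were not uniformly lower in KO. S100a4 had a KO over WT ratio of 0.99 (95% interval 0.87 to 1.13), Icos of 0.87 (0.59 to 1.23), Ccr2 of 1.30 (0.75 to 2.14) and Tbx21, with too few UMIs to be compared, of 2.04 (0.82 to 4.40). S100a6 was at 1015 against 2102 CPM (0.48, 0.43 to 0.54). S100a10 (0.53), S100a11 (0.47) and Anxa2 (0.39) were lower with it, 4 of 11 compared genes of their list, none being higher. S100a6 and S100a11 were lower in KO in the Cxcr3- barcodes too, S100a6 at 55.9 against 557 CPM. Itgb1 (0.57, 276 against 482 CPM) and Itga4, the α4 chain that pairs with it (0.28, 0.17 to 0.43), were lower, 2 of 9 compared adhesion genes. In the same libraries the Cxcr3- barcodes had a ratio of 0.129 for Itgb1, so that this gene was less far apart between genotypes in Cxcr3+ barcodes. The difference between the ratios was not tested.

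Type 1 genes depended on the barcodes of other lineages. Without them 4 of 8 compared were lower in KO and 1 higher (median log2 ratio -0.58), and with all barcodes 1 of 8 was lower and none higher (0.12). Ccl5 had 1 UMI in KO against 792 in WT (ratio 0.013, upper bound 0.0737), while with all barcodes it was at 346 against 306 CPM (1.13), 116 of its 117 KO UMIs being in the 5 NK barcodes. Nkg7 had a ratio of 0.80 (0.62 to 1.02), and Gzmb of 1.00 with most of its KO UMIs in 1 barcode. Of the Treg genes 2 of 10 were lower (5 of 12 with all barcodes). Ikzf2 was lower, at 379 against 751 CPM (0.50, 0.41 to 0.61), and it was 0.582 in the Cxcr3- barcodes. Foxp3 (0.83, 0.40 to 1.52) and Ctla4 (1.11) were within the limit.

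Of 12 compared naive genes 2 were higher in KO Cxcr3+ barcodes and 1 was lower, with a median log2 ratio of 0.24 (3 of 15 higher and none lower with all barcodes). The 2 were Satb1, at 165 against 87.3 CPM (1.89), and Il6ra, the IL-6 receptor α chain, at 173 against 111 (1.56), and the lower gene was Il7r, the IL-7 receptor α chain, at 44.1 against 72.2 (0.61). Of 6 compared homing genes Ccr7 was higher and Gpr183 lower. Ccr7 was at 103 against 31.3 (3.28, 2.07 to 5.07), but its ratio was 0.871 when all Cxcr3+ barcodes were kept and thinned to 2000 UMIs, so that its direction was not stable. Igfbp4 and Gpr83 had too few UMIs to be compared. Igfbp4 was at 121 against 25.7 CPM (ratio 4.72, 3.03 to 7.21) and Gpr83, a Treg gene, at 91.9 against 27.8 (3.30). Igfbp4, Ccr7 and Gpr83 were higher in KO in the Cxcr3- barcodes too. There Igfbp4 was at 237 against 85.4 CPM and Ccr7 at 153 against 88.4, so the direction was not particular to the Cxcr3+ barcodes. All 8 compared interferon-response genes were above 1 and 5 reached the limit, with a median log2 ratio of 0.68. Isg15 was at 235 against 73.6 (3.20) and Irf7, a master factor of the response, at 114 against 37.7 (3.02). With all barcodes 3 of 8 reached the limit. In the Cxcr3- barcodes the median log2 ratio of the interferon genes was 1.27, and Isg15 had a ratio of 2.59.

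Single barcodes made some of the highest ratios. Ifitm1 had a ratio of 270, and its 181 KO UMIs lay in 3 barcodes, 132 of them in 1. Ifitm2 (9.78) came from 6 and Ifitm3 (7.26) from 10 barcodes. Tnfsf8 (10.4), too low to be compared, had 13 of its 18 UMIs in 1 barcode. Cish (3.63), a feedback inhibitor of cytokine signalling, and Dtx1 (3.35), a Notch pathway gene, were also among the 10 highest.

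**Figure D5:**
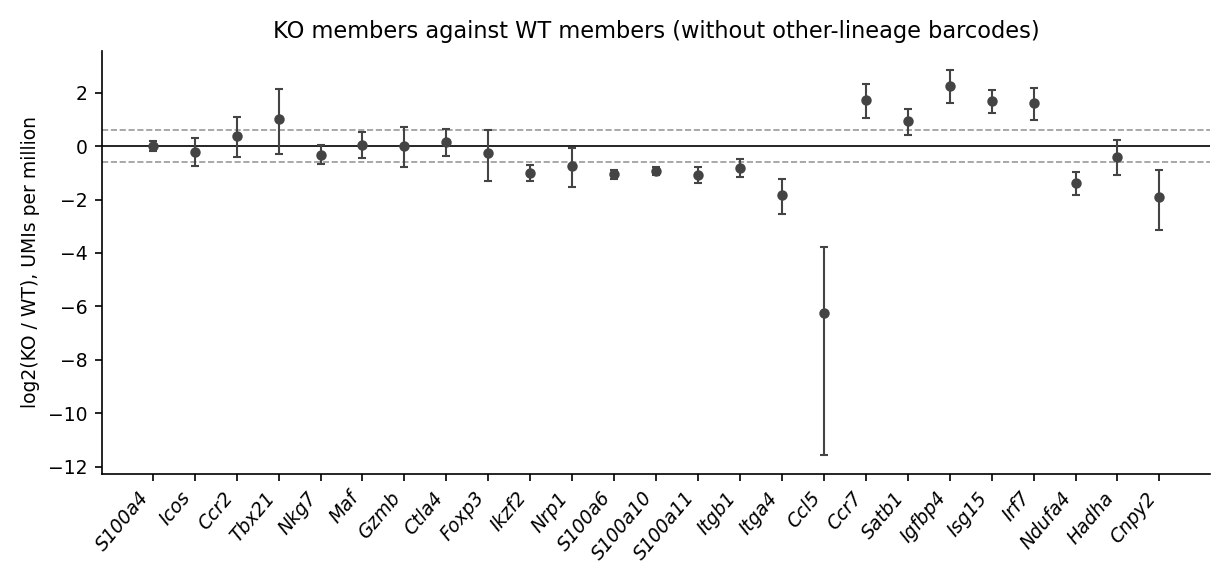
Log2 of the KO over WT ratio of CPM in Cxcr3+ barcodes (members) without other lineages, for 25 genes, with 95% intervals from counting and dashed lines at the 1.5-fold limits. S100a4 lies at a ratio of 0.99 and Icos at 0.87, S100a6 (0.48), Ikzf2 (0.50), Itga4 (0.28) and Ndufa4 (0.39) lie below the lower line, and Igfbp4 (4.72) and Isg15 (3.20) lie above the upper line.

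Zfp335 itself, the deleted gene, was next looked for in the Cxcr3+ barcodes (GRCm38, chr2:164891882-164911757, minus strand). In WT it was at 8.98 CPM in Cxcr3+ and 8.93 in Cxcr3- barcodes. In the KO Cxcr3- barcodes it was at 0.810, with 21 UMIs in 5580 barcodes. The 59 KO Cxcr3+ barcodes held 3 UMIs, 1 in each of 3 barcodes, which is 8.88 CPM and 10.96 times the KO Cxcr3- level (95% interval 2.09 to 36.7). Without barcodes of other lineages 2 UMIs in 47 barcodes remained, a ratio of 8.85 (1.00 to 36.4). The deletion could thus not be read from this gene in the KO Cxcr3+ barcodes at this depth.

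As a second reading, 4 genes lower in KO T barcodes were summed, namely Ankle2, Cnpy2, Apip and Polr3f. They were chosen on these same libraries and are no independent evidence. Their summed level in the 47 KO Cxcr3+ barcodes was 0.353 times that of the 419 WT ones (95% interval 0.204 to 0.571, 17 against 503 UMIs) and 1.48 times that of the KO Cxcr3- barcodes (0.860 to 2.39). In the KO barcodes with at least 2 markers it was 0.263 times the level of their WT counterparts (0.0849 to 0.622).

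The metabolic genes that the study named had ratios below 1 in KO against WT Cxcr3+ barcodes. The study had chosen them on these same samples for being lower in KO, so the direction is set in large part by that choice. Of 5 compared, 2 reached the limit. The median log2 ratio was -0.48, and -0.05 over all genes, a difference that is description only. Ndufa4, of the respiratory chain, was at 169 against 439 CPM (ratio 0.39, 0.28 to 0.52) and Suclg1, of the citric acid cycle, at 73.5 against 143 (0.52). Atp5l (0.72) and Actr2 (0.77) were within the limit. Hadha, the trifunctional enzyme of fatty acid oxidation, had a ratio of 0.76 (0.47 to 1.18) in Cxcr3+ barcodes and of 0.523 in Cxcr3- barcodes. Between Cxcr3+ and Cxcr3- barcodes of the same library none of the 5 reached the limit in WT or, without other lineages, in KO, and the median log2 ratio was 0.22 in both.

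The study used ICOS protein to define effector Treg cells and CXCR3 protein to divide them, both by flow cytometry. Here the overlap of Icos and Cxcr3 RNA was counted at 2000 UMIs per barcode, which is a different measure. Barcodes with both were 41 of 3748 in WT (1.09%) and 7 of 5639 in KO (0.124%). Among barcodes that kept a Cxcr3 UMI after thinning, Icos was seen in 19.8% in WT (41 of 207, 95% interval 14.6 to 25.9). In KO it was seen in 20% of such barcodes (7 of 35, 8.44 to 36.9). Among those without a Cxcr3 UMI after thinning it was seen in 12.3% and 6.55%. In the Cxcr3+ sets as defined above, at 2000 UMIs, it was seen in 20.6% in WT (88 of 428) and 16.9% in KO (10 of 59). The Cxcr3- shares were then 11.7% and 6.52%. Without thinning Icos was seen in 46.3% of the 428 WT (41.5 to 51.1) and 28.8% of the 59 KO Cxcr3+ barcodes (17.8 to 42.1). There the WT barcodes were the deeper. At equal depth the KO interval was too wide to tell a difference.

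Barcodes lay on both sides of several limits of the rule, and levels differed across some of them. In WT barcodes with 1 Cxcr3 UMI, just inside, S100a4 was at 708 CPM against 163 in those with none, and in KO at 434 against 13.6. Just outside the Klrg1 limit, 62 WT barcodes with Cxcr3 and 1 Klrg1 UMI had S100a4 at 1546, and in KO there was 1 such barcode. On depth, 4 WT and 8 KO Cxcr3+ barcodes lay less than 500 UMIs above the limit of 2000, and 8 and 9 lay up to 500 UMIs below it and fell outside. On the sum of cell-division genes, 100 WT and 14 KO barcodes lay at 2, and 46 and 13 at 3 fell outside. S100a4 was at 907 CPM at 2 and 556 at 3 in WT, and at 812 and 28.8 in KO. At the mitochondrial limit S100a4 in WT was at 360 CPM in 21 barcodes inside (4 to 5%) and 1140 in 14 outside (5 to 6%). In KO it was at 764 in 5 and 293 in 4.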

How the data were processed

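The authors sequenced 2 droplet libraries (10x), and the deposited matrices held UMI counts per gene and barcode, not normalized. Cell Ranger 5.0.1 is named in the submitters' processing notes and the genome build is mm10. The libraries held 14524 (WT) and 18134 (KO) barcodes and 32285 genes. Counts of each set were summed and given as CPM, per 1000000 UMIs. A gene was compared where at least 10 UMIs were expected in each set at the pooled rate, and was called higher or lower at a 1.5-fold limit. Intervals of ratios were exact conditional binomial ones, of shares Clopper-Pearson, at 95%. No test was run, as each genotype had 1 library.

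The members and the 26 gene lists were chosen with earlier results of these data known. The genes named were those of the lists and, for each comparison, the 10 with the highest lower bound and the 10 with the lowest upper bound of the ratio, without the 11 genes used for selection. A few others were chosen after their values were seen. Barcodes were thinned to 2000 UMIs where shares were compared across depths. Scrublet's own threshold called 0 doublets in both libraries and so did not work. Removing instead the highest 5% of scores in WT and 8% in KO (403 and 1101 barcodes) left 409 and 53 Cxcr3+ barcodes. Python 3.11.15, numpy 2.4.6, scipy 1.17.1, pandas 2.3.3 and scanpy 1.11.5 were used, and the counting was tested on simulated data. All 262 listed genes were matched to GRCm38 positions.
Certain genes are not reported here.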

Additional observations from a re-analysis of the deposited data

Results flagged for a closer look

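Some genes lay on opposite sides of 1 in the genotypes when Cxcr3+ were set against Cxcr3- barcodes without other lineages. Tnfrsf18, encoding GITR, had a ratio of 0.729 in KO and 1.15 in WT, and Tnfrsf4, encoding OX40, of 0.640 in KO and 1.14 in WT. Lyz2, a myeloid gene, had 0 UMIs against 962 in KO (ratio 0, upper bound 0.340) and a ratio of 1.77 in WT. These differences between the genotypes were not tested.

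Cxcr3+ Klrg1- T barcodes were also present outside the limits used. Over the mitochondrial limit they were 6.64% of T barcodes in WT (45 of 678, median 2763 UMIs) and 0.795% in KO (5 of 629, 2677 UMIs). Over the limit on cell-division genes they were 25.0% in WT (541 of 2162, median 11263 UMIs) and 2.54% in KO (68 of 2682, 6630 UMIs). At 2000 UMIs per barcode the last 2 shares were 9.81% in WT and 0.746% in KO, against 5.74% and 0.619% within the limit.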

How the results depend on the processing

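The difference in share of -9.41 percentage points kept its sign under the alternatives run. It was -11.5 with at least 4000 UMIs, -4.35 with at least 2 Cxcr3 UMIs, -12.0 without the Klrg1 limit, -14.0 without the limit on cell-division genes and -5.99 with thinning before the rule. Gene counts depended on the UMIs required. With at least 30 expected UMIs 221 were higher and 339 lower in WT, 48 and 77 in KO, and 49 and 122 for KO against WT. After thinning it was 88 and 156 in KO and 104 and 207 for KO against WT. With at least 2 Cxcr3 UMIs it was 158 and 220 in KO and 87 and 193 for KO against WT. These alternatives have fewer UMIs or compare fewer genes. The number of genes compared under each is not given here, so the counts cannot be read as shares. Without globin, B, NK, CD8 and macrophage genes in the barcodes 146 were higher in KO and 139 in KO against WT, again without the number compared. Without other lineages 147 of 3353 were higher in KO. The cause was not tested. Without thinning 72.0% of WT Cxcr3+ barcodes held at least 2 markers, and barcodes with both Icos and Cxcr3 were 5.28% in WT and 0.301% in KO. The ratio of KO to WT reversed for Ccr7 after thinning (0.871) and for Gzma without other lineages (0.213). Of the main shares and gene counts 56 values stayed close under an alternative and 25 moved, and of the other values 603 stayed within their spread and 93 moved. No paired analysis was possible because each genotype had 1 library, and no replicate could be left out.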

Other observations

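Fatty acid oxidation genes, a pathway of mitochondrial fuel use, differed little between Cxcr3+ and Cxcr3- barcodes without other lineages. In WT 0 of 20 genes reached the limit in either direction, with a median log2 ratio of 0.11, and in KO Hadh was higher and Acaa2 lower among 10 compared. Costimulatory genes had a median log2 ratio of -0.04 in WT, with Tnfrsf1b, encoding TNF receptor 2, higher (1.72) and Tnfsf8 lower (0.38) of 11 compared.

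A list of 9 genes raised in KO, chosen on these data, had a KO over WT median log2 ratio of 1.97 in Cxcr3- barcodes. Within KO 2 of them could be compared between Cxcr3+ and Cxcr3- barcodes, with 0 higher and 1 lower. Phlda3, a p53 target, was at 33.1 CPM against 26.0 in KO Cxcr3- barcodes, and Trib3, a stress-response pseudokinase, at 29.4 against 6.89 from 8 UMIs. Cdkn1a was at 7.35 against 27.5.

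Xist, expressed from the inactive X chromosome, and the Y-linked gene Ddx3y were both present in each library. Xist was at 195 CPM in WT and 412 in KO Cxcr3+ barcodes, and Ddx3y was at 22.9 and 18.4. The mast cell list had no gene with enough UMIs to be compared in Cxcr3+ barcodes.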
